A study of Macaca mulatta with 24 samples.

Results

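The chemokines CXCL9, CXCL10 and CXCL11 and their receptor CXCR3 were followed in the ileum of rhesus macaques after total-body irradiation (TBI). Every probe whose gene symbol in the deposited normalized table is one of these 4 names was taken, which gave 7 probes out of 43603 that are not controls of the array, for 4 of 16094 genes with a symbol. CXCL9 has 1 probe, and CXCL10, CXCL11 and CXCR3 have 2 each. The animals were young-adult males that received a single cobalt-60 gamma dose of 6.7 Gy or 7.4 Gy, or a sham exposure. Ileum came from 4 unirradiated controls. At each dose, day 4 and day 7 were sampled in 4 animals and day 12 in 2. The RNA came from a piece of the whole gut wall of 1 animal per array, so it mixes epithelium, lamina propria and muscle. The controls carry the label day 4 and are the reference for every irradiated group, and the comparisons with them therefore share their error.

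The 3 chemokines are small secreted proteins that interferon gamma induces, and CXCL10 and CXCL11 also respond to type I interferons. Endothelial cells, fibroblasts, epithelium and mononuclear phagocytes can all secrete them. They bind CXCR3, a G protein-coupled receptor on activated T cells, natural killer cells and other lymphocytes, and draw these cells into inflamed tissue. In the macaque RefSeq annotation of assembly T2T-MMU8v2.0 the ligand genes lie side by side on chromosome 5, CXCL11 from 57775201 to 57776814, CXCL10 from 57789107 to 57790627 and CXCL9 from 57805316 to 57809193, a span of 33993 bases that holds no other annotated gene. CXCR3 lies on chromosome X, from 78102871 to 78103967.

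Signals are given as log2 intensity relative to the 75th percentile of the array, so that 0 is a probe at that percentile and a step of 1 is 2-fold. Between 72.7% and 88.1% of probes were well above background on an array (median 84%), and no spot was saturated. All 6 tested ileal enterocyte markers, among them FABP6 and SLC10A2 of bile acid uptake, were well above background on all 24 arrays. The controls occupy position 1 on slides 1 to 4, while both day 12 arrays of 7.4 Gy lie at position 4 on slides 5 and 6, which hold no control. One library stands apart for the chemokines: replicate 4 of the 6.7 Gy day 4 group had the highest signal of all 24 arrays on 5 of 5 ligand probes. Replicate 2 of the 7.4 Gy day 12 group came second on 5 of 5. The differences from the controls, and those of day 12 after 7.4 Gy from other groups, are given with and without them.

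CXCL10, which answers to interferon gamma and to type I interferons, had its lowest mean in the controls and its highest on day 12 after 7.4 Gy. The brighter of its 2 probes gave -1.10, -2.07, -1.54 and -2.59 in the 4 controls. The 2 animals of day 12 after 7.4 Gy gave 0.17 and 1.94, both above every control. The day 12 animals of 6.7 Gy, at -0.79 and -0.32, also lay above every control but below both animals of the higher dose. On day 4 after 7.4 Gy the values were -1.07, -0.15, -0.48 and -0.40, again with no overlap with the controls. On day 4 after 6.7 Gy they were -1.11, -1.04, -0.29 and 2.52, where 3 animals lay within 1 log2 step of each other and the fourth stood far above. Day 7 gave -0.02, -1.52, -1.76 and -1.06 after 6.7 Gy and -0.89, 0.13, -1.26 and -2.02 after 7.4 Gy, and both groups overlapped the controls. In all, 15 of 20 irradiated animals had more CXCL10 signal than any control. Some of these, at -1.04, -1.06 and -1.07, lay only just above the highest control at -1.10. Such counts set all irradiated animals against the same controls, and the share of tested probes that reach them was not computed for any member. RNA from a whole piece of gut does not tell apart more cells that make a transcript and more transcript per cell.

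**Figure D1:**
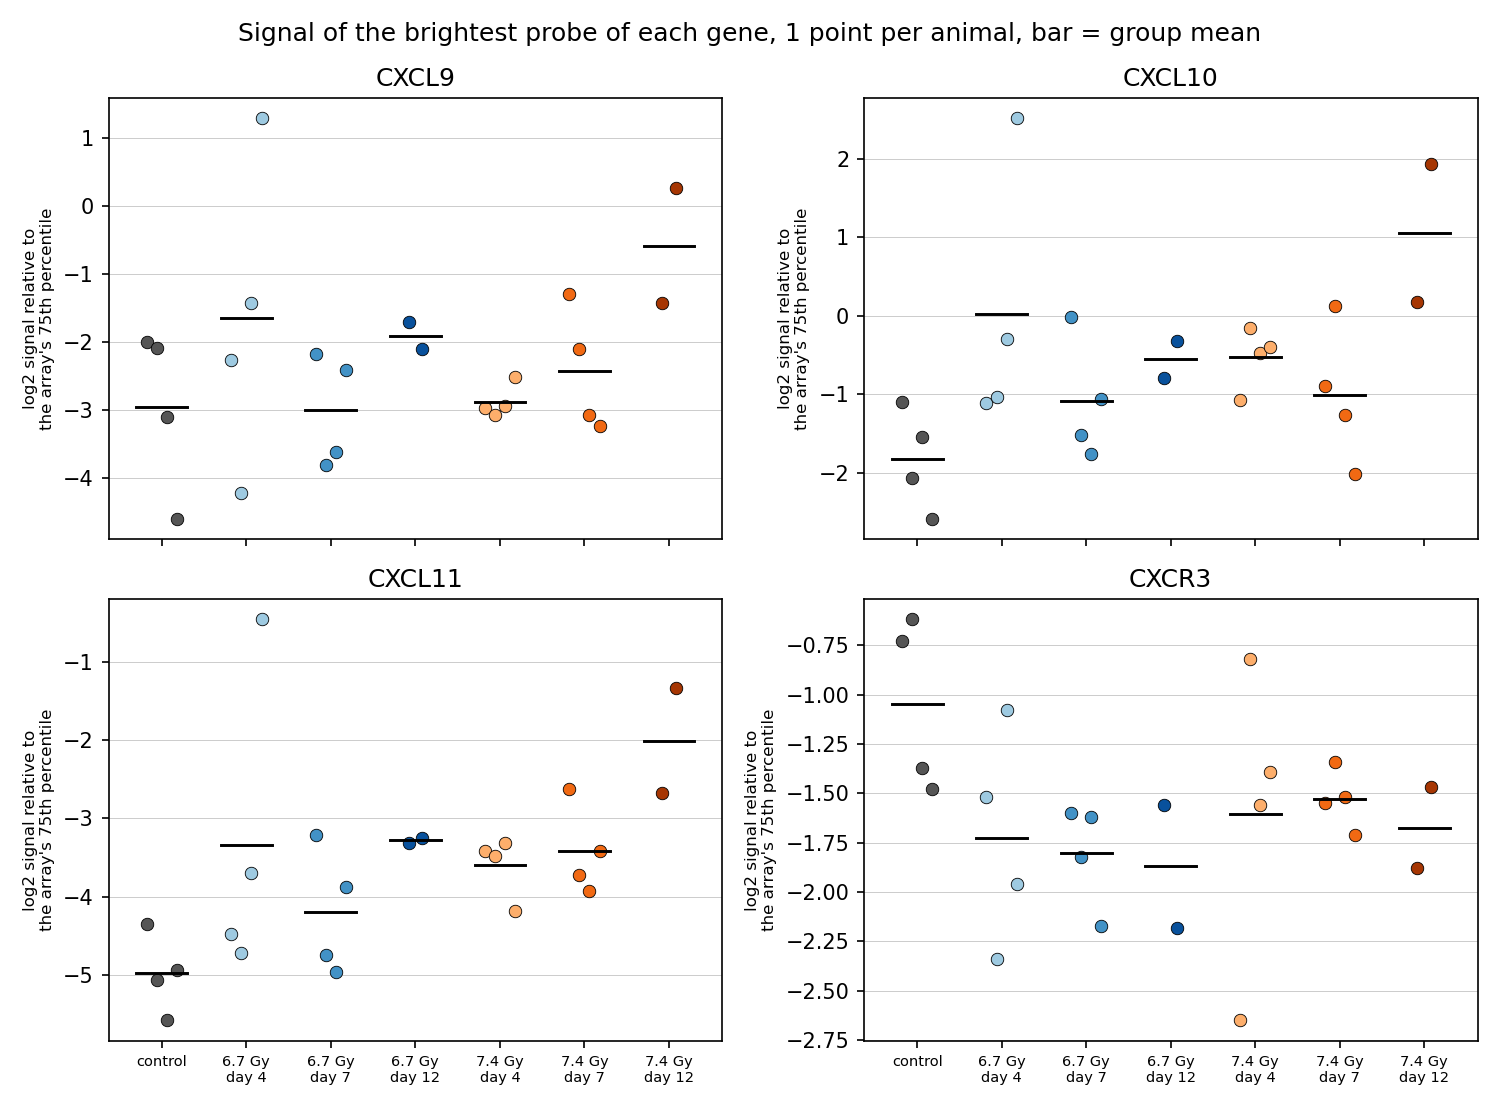
Signal of the brightest probe of CXCL9, CXCL10, CXCL11 and CXCR3 in each animal, as log2 relative to the array's 75th percentile, by group, with a bar at the group mean. For the 3 ligands the single highest point is replicate 4 of 6.7 Gy day 4 and the next is replicate 2 of 7.4 Gy day 12, and for CXCR3 the 2 highest points are controls (each panel has its own scale).

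The second CXCL10 probe followed the first closely (r = 0.98 over 24 arrays). It gave -3.78, -5.24, -4.83 and -6.14 in the controls and -2.29 and -0.79 on day 12 after 7.4 Gy. Of the 20 irradiated animals, 13 lay above every control on this probe.

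CXCL11, the ligand with the highest affinity for CXCR3, lay above every control in 16 of 20 irradiated animals. Its brighter probe gave -4.35, -5.06, -5.58 and -4.93 in the controls. Day 12 after 7.4 Gy gave -2.68 and -1.34, and day 12 after 6.7 Gy gave -3.31 and -3.25. All 4 animals of day 12 were above all controls, and the dose groups did not overlap. Day 4 after 7.4 Gy (-3.42, -3.48, -3.32 and -4.18) and day 7 after 7.4 Gy (-2.63, -3.72, -3.93 and -3.41) also lay wholly above the controls. After 6.7 Gy, day 4 gave -4.48, -4.72, -3.70 and -0.46, and day 7 gave -3.21, -4.74, -4.96 and -3.88. These last groups each had 2 of 4 animals within the range of the controls. The second CXCL11 probe was dim, well above background on 19 of 24 arrays and on 2 of 4 controls, and correlated with the first (r = 0.93). On it the controls lay between -7.15 and -5.41, and the day 12 animals of 7.4 Gy were at -3.90 and -1.68.

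CXCL9, which depends most strictly on interferon gamma, varied more among the controls than the other ligands. Its only probe gave -2.00, -2.09, -3.11 and -4.61 in these animals. Day 12 after 7.4 Gy gave -1.43 and 0.27, above every control, and day 12 after 6.7 Gy gave -1.71 and -2.11, of which 1 was within the control range. On day 4 the values were -2.26, -4.22, -1.43 and 1.30 after 6.7 Gy and -2.98, -3.08, -2.95 and -2.51 after 7.4 Gy. The latter group lay entirely within the controls, unlike the same animals for CXCL10 and CXCL11. Day 7 ranged from -3.81 to -2.18 after 6.7 Gy and from -3.24 to -1.30 after 7.4 Gy, and overlapped the controls at both doses. Only 6 of 20 irradiated animals lay above every control.

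Ordered by mean, 7.4 Gy day 12 came first for each ligand, at 1.05 ± 1.25 for CXCL10, -2.01 ± 0.95 for CXCL11 and -0.58 ± 1.20 for CXCL9 (SD, n = 2). The controls came last for CXCL10 (-1.83 ± 0.65, n = 4) and CXCL11 (-4.98 ± 0.50) and last but one for CXCL9 (-2.95 ± 1.21). In the order of the 7 groups, every pair of neighbours overlapped in range, except that 7.4 Gy day 12 lay clear of the next group, 6.7 Gy day 12, for CXCL11.

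The question of the main comparison was whether the chemokine transcripts differed from the controls after each dose and day, tested with limma over all 24 arrays and 36110 probes. On day 12 after 7.4 Gy, CXCL10 was 7.35-fold higher (95% interval 2.35 to 23; log2 difference 2.88, SE 0.79, adjusted p = 0.20) and its second probe 11-fold (2.78 to 43.2). CXCL11 was 7.82-fold higher (2.47 to 24.8, log2 difference 2.97, SE 0.80, adjusted p = 0.19). After normexp background correction its log2 difference was 1.75 (limma, adjusted p = 0.29). That correction added 50 to every signal, which shrinks the differences of dim probes. The brighter CXCL11 probe had uncorrected intensities of only 20.7 to 54.3 in the controls. CXCL9 was 5.18-fold higher (1.22 to 22; log2 difference 2.37, adjusted p = 0.54). The intervals of all 5 ligand probes excluded equality, but none passed an adjusted p of 0.05. A call required both a 2-fold difference and an adjusted p below 0.05, and limma called 0 of the 7 probes in this comparison, where 0.0443% of all tested probes were called. With the p left unadjusted and the fold kept, 5 of 7 probes passed (1.84% of tested probes did), all of them ligands and all higher; with only probes well above background on all arrays, which leaves out the second CXCL11 probe, 4 of 6 passed. The 5 stand against 0.654% of tested probes that passed in this direction. They belong to CXCL9, CXCL10 and CXCL11, which varied together, and rest on the same animals, so they are not independent. All 5 ligand probes lay above the controls without overlap, which 8.43% of tested probes did. By unadjusted p, 0.695% of tested probes ranked ahead of CXCL11, 0.792% ahead of CXCL10 and 5.18% ahead of CXCL9.

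Much of the size of these differences came from replicate 2 of this group. Without it the log2 differences were 1.99 for CXCL10, 2.30 for CXCL11 and 1.52 for CXCL9 (limma, adjusted p = 0.91, adjusted p = 0.82 and adjusted p = 1), and without replicate 1 they were 3.76, 3.64 and 3.22. With slide as a block they were 3.03, 3.65 and 2.68, with adjusted p of 0.63, 0.48 and 0.79. Within slides 5 and 6 the day 12 arrays can be set only against other irradiated animals. There CXCL10 was higher in 6 of 6 pairs (log2 difference 0.65 to 2.98) and CXCL11 and CXCL9 in 5 of 6 each. The pairs reuse the same day 12 arrays and are not independent, and replicate 2 gave the larger differences for each ligand. Array position could not be fitted for day 12 against the controls, since no group links positions 1 and 2 with positions 3 and 4, so position and group cannot be told apart.

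**Figure D2:**
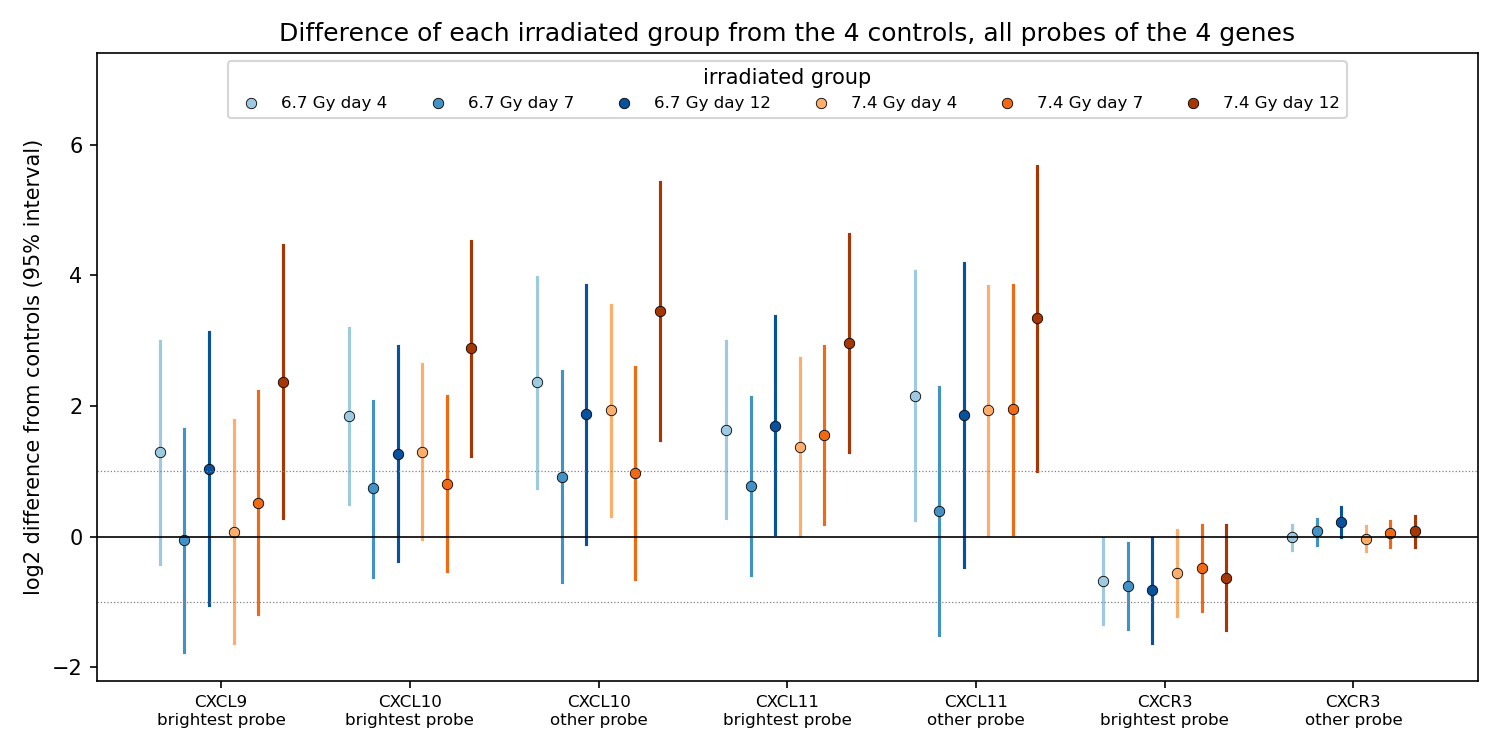
Log2 difference from the 4 controls, with the 95% interval of the limma fit, for each of the 7 probes and the 6 irradiated groups; dotted lines mark a 2-fold difference. The day 12 point after 7.4 Gy is the highest of the 6 on all 5 ligand probes, between 2.37 and 3.45 (the second CXCL11 probe was well above background in 2 of 4 controls), and all points of the second CXCR3 probe lie between -0.03 and 0.23.

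In the other comparisons with the controls, limma over all 24 arrays also called 0 of the 7 probes. At 6.7 Gy, 0.978% of all tested probes were called on day 4, 0.235% on day 7 and 0.108% on day 12, and at 7.4 Gy 2.33% on day 4 and 0.568% on day 7. With the p unadjusted, 4 of the 7 probes passed on day 4 after 6.7 Gy (2.95% of tested probes), 0 on day 7 (1.32%) and 1 on day 12 (1.69%). After 7.4 Gy, 3 passed on day 4 (3.98%) and 2 on day 7 (2.38%). Every one of these was a ligand probe with a higher mean. A limma fit with trended and robust variance gave 0 called probes and identical unadjusted counts in the 6 comparisons with the controls. Normexp background correction also gave 0 called probes, with unadjusted counts of 3, 0 and 0 by day at 6.7 Gy and 0, 0 and 5 at 7.4 Gy. These unadjusted counts also moved without the 2 arrays of highest ligand signal (2, 0 and 4 by day at 6.7 Gy, 4, 2 and 3 at 7.4 Gy), with only the compared groups in the fit (2, 0 and 4, then 4, 2 and 5), with slide as a block (3, 0 and 2, then 3, 1 and 4) and with array position as a covariate, which left 0 on day 4 after 6.7 Gy and 1 after 7.4 Gy (CXCL9, below the controls at -3.10). On day 12 after 6.7 Gy, 4 of 5 ligand probes lay above the controls without overlap (15.3% of tested probes), and on day 7 after 7.4 Gy 1 of 5 did (3.72%). Without the 2 arrays of highest ligand signal, the brighter CXCL11 probe was called after 7.4 Gy on day 4 (adjusted p = 0.028) and day 7 (adjusted p = 0.043). Its differences stayed at 1.38 and 1.56 while the SE went from 0.65 to 0.37, and since the arrays were chosen by this signal the p-values are too small.

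On day 4 after 7.4 Gy CXCL11 was higher by 1.38 ± 0.65 on the log2 scale (SE, adjusted p = 0.20) and CXCL10 by 1.30 ± 0.64 (adjusted p = 0.23), both without overlap with the controls, which 7.84% of tested probes showed in this direction. CXCL9 had a difference of 0.07 ± 0.82 (adjusted p = 0.97), with a 95% interval that holds both other values. After normexp correction, with its 50 added to every signal, the CXCL11 difference was 0.61 (limma, adjusted p = 0.43). When only these 2 groups entered the fit, both CXCL11 probes were called (adjusted p = 0.047 and 0.043), and neither CXCL10 probe (0.074 and 0.068). With array position as a covariate the signs turned, to -1.14 for CXCL11, -0.89 for CXCL10 and -3.10 for CXCL9, none of them called. That fit separates position from group only through the 6.7 Gy day 4 animals, which lie at positions 1 and 2, the high replicate 4 among those at position 2. Within a slide, CXCL11 was higher than the control in 12 of 12 irradiated animals that shared a slide with one (median log2 difference 1.29). CXCL10 was higher in 10 of 12 and CXCL9 in 7 of 12. These pairs span other doses and days too and reuse the same controls, so they are not independent.

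On day 4 after 6.7 Gy the differences were 1.84 ± 0.64 for CXCL10 (adjusted p = 0.11), 1.64 ± 0.65 for CXCL11 (adjusted p = 0.15) and 1.30 ± 0.82 for CXCL9 (adjusted p = 0.34). Without replicate 4 they were 1.01, 0.68 and 0.31, and with array position as a covariate 0.75, 0.38 and -0.29. That animal had CXCL10 at 2.52, CXCL11 at -0.46 and CXCL9 at 1.30, while the other 3 of its group had CXCL10 between -1.11 and -0.29, CXCL11 between -4.72 and -3.70 and CXCL9 between -4.22 and -1.43. It also had the highest signal of all 24 arrays for IFNG, which encodes interferon gamma (-2.34, the next -3.97), and for IDO1, the tryptophan-degrading enzyme that interferon gamma induces (3.76, the next 0.98). Its 6 ileal enterocyte markers were the lowest of all arrays, with a median log2 deviation of -1.91 from the mean of the controls and a summed signal of 147 times the 75th percentile, against 334 to 439 in the rest of its group. Its 10 macrophage and monocyte markers were the second highest, with a deviation of 0.56. The summed signal of its 11 cytotoxic lymphocyte genes, at 118, was the highest of all arrays, against 43.9 to 52.2 in the rest of its group, and their median was the third highest. The part of cell composition in these signals was not tested.

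On day 12 itself, the 7.4 Gy animals were higher than the 6.7 Gy animals by 1.61 ± 0.91 on the log2 scale for CXCL10 (adjusted p = 0.81), 1.27 ± 0.92 for CXCL11 (0.85) and 1.33 ± 1.16 for CXCL9 (0.88). None of the 7 probes was called (0.00277% of tested probes were) or passed at an unadjusted p (1.55%). The dose groups did not overlap on any of the 5 ligand probes, but with 2 animals against 2 this held for 14.7% of all tested probes in the same direction, and the doses lay on different slides (6.7 Gy on slides 3 and 4). With slide as a block, which other groups link, the differences were 1.47 for CXCL10, 1.67 for CXCL11 and 1.15 for CXCL9 (adjusted p = 1 for each). Without replicate 2 of the 7.4 Gy group they were 0.72, 0.60 and 0.48, and without replicate 1 2.49, 1.94 and 2.18. The 95% interval of the CXCL10 difference ran from -0.29 to 3.51. On day 4 the 7.4 Gy animals differed from the 6.7 Gy animals by -0.54 for CXCL10, -0.26 for CXCL11 and -1.22 for CXCL9 (adjusted p between 0.88 and 0.95), and without the 2 arrays of highest ligand signal by 0.29, 0.70 and -0.24. On day 7 the dose difference was 0.08 for CXCL10, 0.78 for CXCL11 and 0.58 for CXCL9, with adjusted p between 0.99 and 1.

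Along time after 7.4 Gy, day 12 exceeded day 7 by 2.06 ± 0.79 for CXCL10 (adjusted p = 0.53), 1.41 ± 0.80 for CXCL11 (adjusted p = 0.72) and 1.85 for CXCL9 (95% interval -0.24 to 3.94, adjusted p = 0.70). Day 12 exceeded day 4 by 2.30 for CXCL9 (0.21 to 4.39, adjusted p = 0.20), 1.59 ± 0.80 for CXCL11 (adjusted p = 0.28) and 1.58 ± 0.79 for CXCL10 (adjusted p = 0.27). All 5 ligand probes were above day 4 without overlap, as were 16.6% of tested probes. With array position as a covariate, which could be fitted against day 7, the differences were 2.69 for CXCL10, 1.66 for CXCL11 and 2.58 for CXCL9 (adjusted p = 0.27, 0.53 and 0.38). Without replicate 2 of day 12 the differences from day 7 were 1.18 for CXCL10, 0.74 for CXCL11 and 1.0 for CXCL9, and those from day 4 were 0.69, 0.92 and 1.45. Limma called 0 of the 7 probes between day 12 and day 4 or day 7 after 7.4 Gy, where 1.8% and 0.00554% of tested probes were called. With the p unadjusted, CXCL9 passed against day 4 (4.97% of tested probes) and both CXCL10 probes against day 7 (1.48%).

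The 3 ligands varied together across animals. Over 24 arrays Pearson's r was 0.85 between CXCL10 and CXCL11 (Spearman's rho 0.76), 0.83 between CXCL9 and CXCL10 (0.64) and 0.82 between CXCL9 and CXCL11 (0.65). Without the 2 arrays of highest signal, r was 0.65, 0.59 and 0.58. The standard deviation of the ligand probes over the 24 arrays was 1.16 to 1.58, larger than that of 98.6% to 99.7% of tested probes, whose median was 0.33. The points share array, animal and the group differences described above, so these are descriptions and carry no test. The brighter CXCR3 probe gave r = 0.08 with CXCL9, -0.11 with CXCL10 and -0.23 with CXCL11. The second CXCR3 probe gave 0.48, 0.22 and 0.45 (rho 0.64, 0.24 and 0.57).

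**Figure D3:**
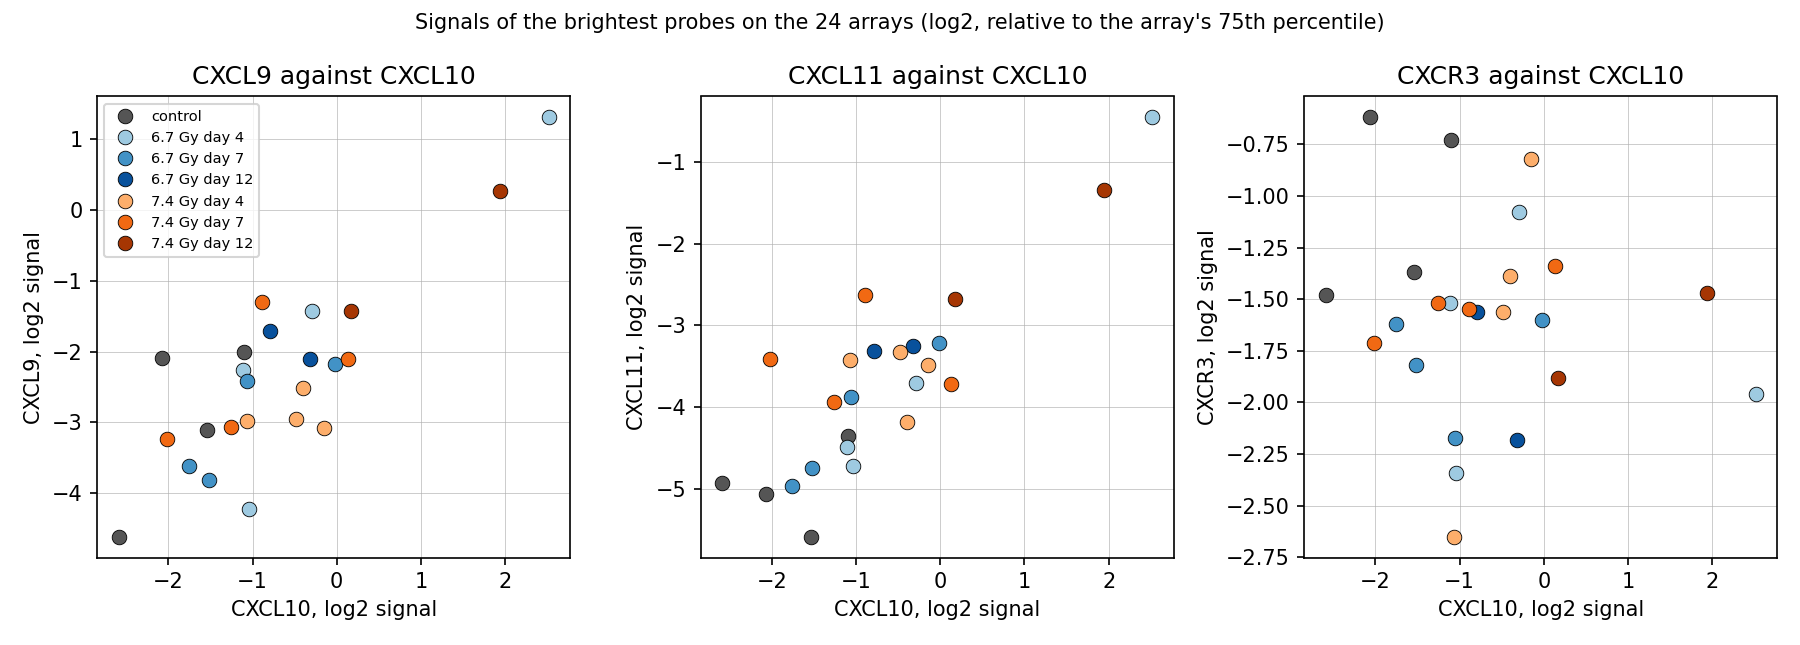
Log2 signals of CXCL9, CXCL11 and CXCR3 against that of CXCL10, 1 point per animal, coloured by group. CXCL9 and CXCL11 lie along a rising band (r = 0.83 and 0.85) that ends in replicate 2 of 7.4 Gy day 12 and replicate 4 of 6.7 Gy day 4, and the brighter CXCR3 probe shows no such band (r = -0.11).

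CXCR3, the receptor, had its highest mean in the controls on its brighter probe, opposite to CXCL10 and CXCL11, but not on its second probe. The controls gave -0.73, -0.62, -1.37 and -1.48. Day 12 gave -1.56 and -2.18 after 6.7 Gy and -1.88 and -1.47 after 7.4 Gy, of which 3 of 4 animals were below every control. On day 7 the values were -1.60, -1.82, -1.62 and -2.17 after 6.7 Gy and -1.55, -1.34, -1.52 and -1.71 after 7.4 Gy. Here 7 of 8 animals were below every control. Day 4 ran from -2.34 to -1.08 after 6.7 Gy and from -2.65 to -0.82 after 7.4 Gy, with wide scatter. Altogether 15 of 20 irradiated animals lay below every control and none above. All were set against the same controls, and the share of tested probes with such a count was not computed. The means of the 6 irradiated groups, from -1.87 to -1.53, followed each other within 0.07 and overlapped in range.

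The differences of this CXCR3 probe from the controls at 6.7 Gy were -0.68 on day 4, -0.75 on day 7 and -0.82 on day 12 (adjusted p = 0.21, 0.44 and 0.55), and at 7.4 Gy -0.55, -0.48 and -0.63 (adjusted p = 0.30, 0.53 and 0.75). None reached 2-fold. Within slides it was below the control of the same slide in 11 of 12 animals, with a median difference of -0.74. These pairs also reuse the same controls and are not independent. The second CXCR3 probe did not show this: it gave -2.69 to -2.52 in the controls and -2.80 to -2.34 after irradiation, with differences between -0.03 and 0.23, the largest on day 12 after 6.7 Gy, where both animals (-2.34 and -2.40) were above every control. It varied less (SD 0.11 over 24 arrays) than all but 0.177% of tested probes, and the 2 CXCR3 probes were not correlated with each other (r = -0.08). The lower CXCR3 signal therefore rests on 1 of 2 probes, and these data do not settle which of them measures the transcript.

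Cells that carry CXCR3 were represented by 11 tested T cell genes and 11 genes of cytotoxic lymphocytes. None of the 22 was called on day 12 at either dose, where 0.108% and 0.0443% of tested probes were. With the p unadjusted, 1 T cell gene passed after 6.7 Gy (1.69% of tested probes) and 1 cytotoxic gene after 7.4 Gy (1.84%), both lower. The T cell genes had a median log2 difference of -0.66 on day 12 after 6.7 Gy and -0.31 after 7.4 Gy, against 0.06 and -0.01 for all tested probes, and on day 12 after 7.4 Gy all 11 lay below 0. The cytotoxic genes had a median of 0.06 on day 12 after 7.4 Gy, with 6 of 11 above 0, although the median over the genes of each animal lay below the controls' mean in both (-0.38 and -0.17). CD3E, a chain of the T cell receptor complex, gave 1.01, 0.53, 0.76 and 0.22 in the controls and 0.22 and 0.28 on day 12 after 7.4 Gy (log2 difference -0.38 ± 0.28, adjusted p = 0.81). CD8A, the coreceptor of cytotoxic T cells, gave 1.08, 0.49, 0.17 and -0.55 in the controls and -0.19 and 0.23 in that group (-0.28 ± 0.37, adjusted p = 0.92). Both lists had their lowest medians on day 7, -0.77 after 6.7 Gy for each list and -0.85 and -0.74 after 7.4 Gy. In that last comparison 2 of 11 cytotoxic genes were called, both lower, against 0.454% of tested probes called lower: the killer cell receptor KLRD1 by -1.68 ± 0.37 (adjusted p = 0.027) and the transcription factor EOMES by -1.04 ± 0.23 (adjusted p = 0.034). These names were chosen after their values were seen.

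Upstream of the ligands, none of 12 tested genes of interferon gamma and its signalling was called on day 12 after 7.4 Gy, and 7 of them lay above 0 (median 0.28). With the p unadjusted 1 passed, lower, where 1.84% of tested probes passed in either direction. It was the cytokine IL18 (-1.08 ± 0.44, limma, adjusted p = 0.51, named after its value was seen). IFNG itself was near the detection limit, well above background on 18 of 24 arrays. It gave -4.94, -5.41, -5.07 and -6.30 in the controls and -5.34 and -3.97 on day 12 after 7.4 Gy (log2 difference 0.77 ± 0.89, adjusted p = 0.90). IRF1, a transcription factor of the interferon gamma response, gave 3.67, 3.05, 3.15 and 2.08 in the controls and 3.84 and 3.88 in that group, its 2 highest arrays of all 24 (0.87 ± 0.41, unadjusted p = 0.046, adjusted p = 0.60). Both animals of that group lay above every control for IRF1.

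On day 12 after 7.4 Gy the differences of other interferon gamma targets lay below those of the 5 ligand probes, and none passed at an unadjusted p with a 2-fold difference. Of 17 tested genes, 16 had a difference above 0 on day 12 after 7.4 Gy, with a median of 0.34, and none was called. They include subunits of the immunoproteasome, guanylate-binding proteins and peptide transporters of antigen presentation. IDO1 was the exception in sign, with 0.71, 0.29, 0.36 and 0.90 in the controls and -0.18 and 0.64 in that group (-0.33 ± 0.69, adjusted p = 0.96). In the per-animal medians of this list, the top 3 places were held by replicate 4 of 6.7 Gy day 4 (0.72), replicate 2 of 7.4 Gy day 12 (0.46) and, level with control replicate 1, replicate 1 of 7.4 Gy day 12 (0.24). The list's median on other days lay between -0.13 and 0.06. On day 4 after 7.4 Gy, where 0.734% of tested probes were called lower, 1 gene of this list was called, the proteasome subunit PSMB9 (-1.06 ± 0.29, adjusted p = 0.035), and 1 of the antiviral list, RSAD2 (-1.44 ± 0.39, adjusted p = 0.033); both were named after their values were seen.

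Among the antiviral targets that type I interferons share, 16 of 21 tested genes lay above 0 on day 12 after 7.4 Gy (median 0.36) and none was called. With the p unadjusted, 4 passed, all higher, where 0.654% of tested probes did: IFIT2 (1.01 ± 0.33), IFIT3 (1.01 ± 0.39), MX1 (1.02 ± 0.44) and OASL (1.36 ± 0.46), with adjusted p between 0.33 and 0.55; these were named after their values were seen. On day 7 the list's medians were -0.37 after 6.7 Gy and -0.49 after 7.4 Gy, against 0.00 and -0.03 for all tested probes, while CXCL10 and CXCL11 stood at 0.74 and 0.78 after 6.7 Gy and at 0.81 and 1.56 after 7.4 Gy, and CXCL9 at -0.05 and 0.52 (none called). Leaving out single arrays on day 7 gave 0.38 to 0.98 after 6.7 Gy and 0.43 to 1.15 after 7.4 Gy for CXCL10. For CXCL11 it gave 0.45 to 1.04 and 1.29 to 1.77. One control stood high in the antiviral list: replicate 1 had a median deviation of 0.61, the highest of all 24 arrays. Of 6 tested genes of type I interferon and its signalling, 4 lay above 0 on day 12 after 7.4 Gy (median 0.23) and none was called. From day 4 to day 12 after 7.4 Gy, 1 of these 6 and 1 of 17 interferon gamma targets were called higher (1.8% of tested probes were called either way). From day 7 to day 12, 10 of 21 antiviral genes passed higher at an unadjusted p (median 1.15), where 1.48% of tested probes passed either way. None of these was called.

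**Figure D4:**
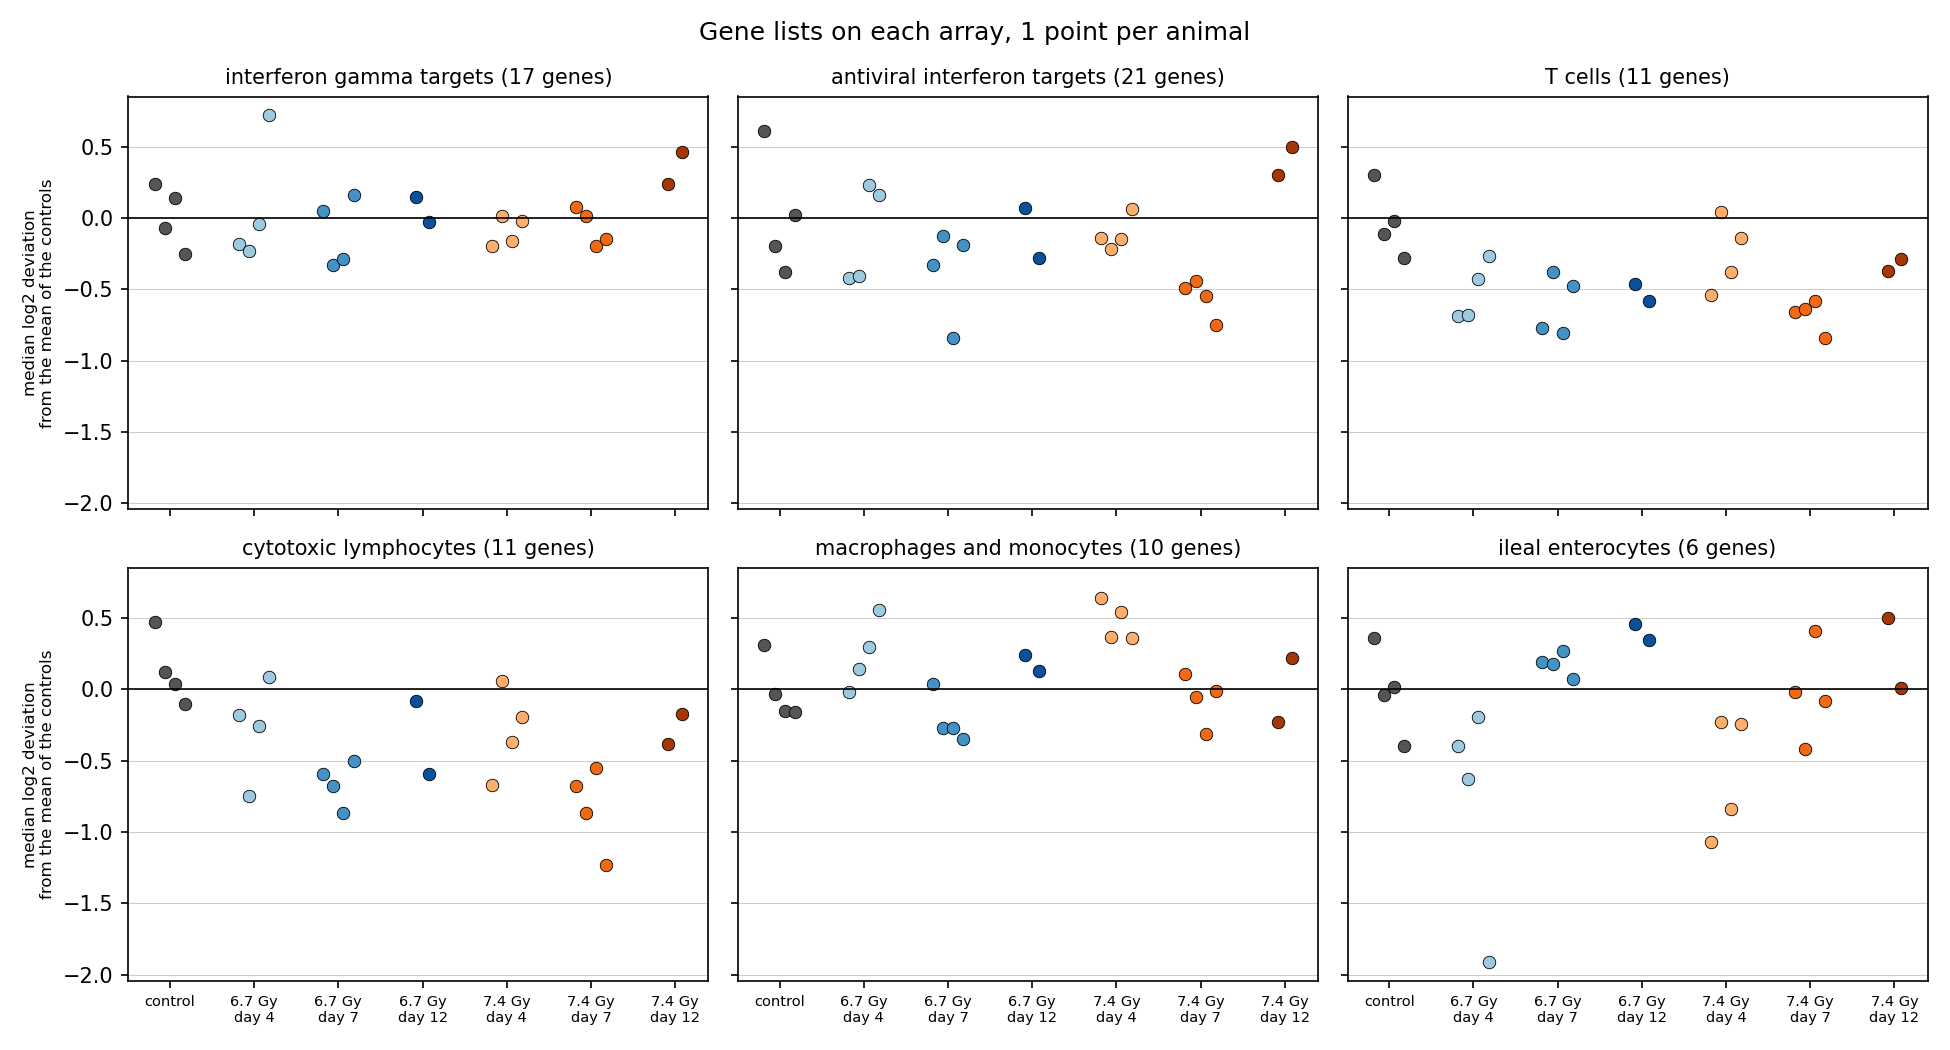
For each animal, the median log2 deviation of a list's genes from their mean in the controls, for interferon gamma targets, antiviral interferon targets and markers of T cells, cytotoxic lymphocytes, macrophages and monocytes, and ileal enterocytes. Both day 12 animals of 7.4 Gy lie above 0 in both interferon lists (0.24 to 0.50) and below 0 in both lymphocyte lists, and replicate 4 of 6.7 Gy day 4 is the highest for interferon gamma targets (0.72) and the lowest for enterocytes (-1.91).

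The cell types that can secrete the ligands gave small or opposite differences on day 12 after 7.4 Gy, with no gene called. The median was 0.04 over 10 macrophage and monocyte genes, 0.15 over 7 fibroblast genes, -0.54 over 7 endothelial genes and -0.36 over 7 epithelial genes. With the p unadjusted, 1 endothelial gene passed, lower, where 1.84% of tested probes passed in either direction. CD68, a lysosomal protein of macrophages, gave 2.63, 1.86, 1.77 and 1.76 in the controls and 1.76 and 1.74 in that group (-0.26 ± 0.22, adjusted p = 0.85). The summed signal of the macrophage and monocyte list ran from 62.1 to 84.5 in the controls and from 65.5 to 85 on day 12 after 7.4 Gy, and all 10 markers were well above background on all arrays. On day 4 after 7.4 Gy the sum was 91.9 to 104, all 10 genes lay above 0 (median 0.51), and the lipopolysaccharide coreceptor CD14 was called (1.14 ± 0.24, adjusted p = 0.011; named after its value was seen), where 1.6% of tested probes were called higher. In the same comparison all 7 fibroblast genes (median 0.81, 3 called higher) and all 7 endothelial genes (median 0.31, 1 called higher) lay above 0, and the epithelial genes had a median of -0.63 with 1 called lower. The part of these cells in the chemokine signals was not tested.

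Of the 3 tested genes for other partners of the ligands, 1 was called on day 4 at both doses, the atypical chemokine receptor ACKR1 of venular endothelium and red cells (named after its value was seen). It gave -0.67, 0.01, 0.11 and 0.07 in the controls, 0.67, 1.86, 0.53 and 1.36 on day 4 after 6.7 Gy and 1.58, 1.71, 1.32 and 1.26 on day 4 after 7.4 Gy, with no overlap. ACKR1 rose by 1.22 ± 0.24 after 6.7 Gy (adjusted p = 0.011, 0.595% of tested probes called higher) and by 1.59 ± 0.24 after 7.4 Gy (adjusted p = 8.3e-04). On day 12 after 7.4 Gy ACKR1 was at 0.08 and -0.37, within the controls (-0.02 ± 0.29), and its difference from day 4 of that dose was -1.61 ± 0.29 (adjusted p = 0.0064, 1.01% of tested probes called lower).

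Each ligand had both other ligands among the 5 genes whose signals were most like its own over the 24 arrays. For CXCL10 these were CXCL11 (r = 0.85), the apolipoprotein L gene APOL6 (0.84 on the probe most like CXCL10), CXCL9 (0.83), the ADP-ribosyltransferase PARP14 (0.80) and the splicing factor PUF60 (0.78). For CXCL9 they included CXCL10 (0.83), PARP14 and CXCL11 (0.82 each) and PSME2, a proteasome activator subunit (0.81). For CXCL11 they were CXCL10 (0.85), the F-box protein FBXO6 (0.84), CXCL9 (0.82), the transcription factor NFE2L3 (0.80) and APOL6 (0.77, on another of its probes). For the brighter CXCR3 probe they were the histone chaperone ASF1A (0.74), CD8A (0.72), the T cell and natural killer cell receptor CRTAM (0.72), the ubiquitin-conjugating enzyme UBE2A (0.71) and the lysosomal galactosidase GLA (0.71). Without the 2 arrays farthest from the member's median, these values lay between 0.56 and 0.75. Of these genes outside the members, APOL6 (1.26 ± 0.44, adjusted p = 0.38) and FBXO6 (1.09 ± 0.41, adjusted p = 0.44) reached a 2-fold difference on day 12 after 7.4 Gy, and neither was called.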

How the data were processed

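Agilent single-color rhesus arrays, 1 for each of 24 animals, were read by the authors with Feature Extraction 11.0.1.1. The deposited scanner files give a background-subtracted intensity for each spot, not scaled between arrays, and the raw table holds the same intensities. The authors' normalized log2 values subtract the 75th percentile of each array and are centred on the median of each probe, as deposited; they served as an alternative. Groups follow the sample titles. For the latest arrays a protocol note says 21 days, but titles, the day field and the paper give day 12, which was used. Jejunum and colon were not analysed here.

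Here log2 intensity minus the 75th percentile of the array was computed over 43603 probes that are not controls, with spots of a probe averaged. Probes entered the test if all arrays of some group had them well above background, as held for all 7 probes of the members. Limma 3.58.1 in R 4.3.3 fitted 1 mean per group over all 24 arrays, with Benjamini-Hochberg adjustment over 36110 probes. The brightest probe of a gene over the 24 arrays represents it, except among the genes most like a member, which are given by their most correlated probe. Symbols outside the 4 members were updated through RefSeq for 3127 probes by gene number and 723 by accession (CD8A and CD68 among them). Named genes are all probes of the members, the 5 genes most correlated with each, genes of 12 pathway and cell type lists called on day 12 after 7.4 Gy (none), and IFNG, IRF1, IDO1, CD3E, CD8A and CD68; others are marked, and 1 gene the rule names is not reported here. The members and lists were chosen with earlier results of these data known. The number of arrays limits the precision. Replicate numbers do not pair animals: deviations of same-numbered arrays from their group means correlated with a median r of 0.03, and 16 of 62 pairs exceeded 0.1. The fit was also run on simulated data, drawn independently for each probe and array. Such data hold no slide or position effects, so that run cannot judge them.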

Additional observations from a re-analysis of the deposited data

Results flagged for a closer look

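The second CXCR3 probe in 6.7 Gy day 7 replicate 4 (-2.37) lay apart from the other 3 animals of its group (-2.59 to -2.56), with a gap of 0.843 of the group's range. This was 1 of 35 groups of 4 checked over the 7 probes, and chance alone sets apart about 5% of such groups. For the ligands, replicate 4 of 6.7 Gy day 4 gave gaps of 0.775 for CXCL10 and 0.76 for CXCL11, under the limit used for 4 values.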

How the results depend on the processing

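The 36 differences of the brightest probes (6 comparisons with the controls, the doses on day 12, and day 12 against days 4 and 7 after 7.4 Gy) were recomputed 643 times in all. In 612 the sign and the absence of a call stayed. With only the compared groups in the fit, CXCL11 on day 4 after 7.4 Gy was called (1.38), and so were 2 member probes there in place of 0. The sign turned in 28. With array position as a covariate these were CXCL9 on day 4 after 6.7 Gy (-0.29) and after 7.4 Gy (-3.10), CXCL10 (-0.89) and CXCL11 (-1.14) on day 4 after 7.4 Gy. CXCL9 turned to 0.01 on day 7 after 6.7 Gy under normexp and under quantile normalization, and to -0.05 on day 4 after 7.4 Gy under normexp. With slide as a block CXCR3 between doses on day 12 turned to -0.11, and without both highest arrays to -0.01. The second CXCR3 probe turned the sign on day 7 (0.08 after 6.7 Gy, 0.05 after 7.4 Gy), on day 12 (0.23 and 0.08), between doses on day 12 (-0.15) and from days 4 and 7 to day 12 after 7.4 Gy (0.11 and 0.04). Leaving out single arrays gave -0.61 to 0.26 for CXCL9 on day 7 after 6.7 Gy, -0.48 to 0.39 on day 4 and -0.03 to 0.84 on day 7 after 7.4 Gy. For CXCR3 it gave -0.11 to 0.50 between doses on day 12, -0.42 to 0.19 from day 4 and -0.35 to 0.06 from day 7 to day 12 after 7.4 Gy. The cause was not tested.

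On day 12 after 7.4 Gy, leaving out single arrays gave 1.99 to 3.76 for CXCL10, 2.30 to 3.64 for CXCL11, 1.52 to 3.22 for CXCL9 and -0.83 to -0.42 for CXCR3, the lone animal being assumed to vary like the other groups. Normexp on spot medians, with 50 added to every signal, gave 1.75 for CXCL11 there. On day 4 and day 7 after 7.4 Gy it gave 0.61 and 0.76. After 6.7 Gy it gave 0.95 on day 4, 0.42 on day 7 and 0.78 on day 12. The replicate block gave 2.87, 3.04, 2.39 and -0.67 and changed no call. Leaving out both highest arrays together, chosen after seeing the data, gave 1.99, 2.30 and 1.52 for the ligands, and 1 member probe called in place of 0 on day 4 and 1 on day 7 after 7.4 Gy, CXCL11 in both (1.38 and 1.56). Called probes over the whole array were 353 on day 4, 85 on day 7 and 39 on day 12 at 6.7 Gy and 842, 205 and 16 at 7.4 Gy, with ranges over the alternatives of 49 to 385, 36 to 113, 3 to 60, 144 to 972, 68 to 239 and 0 to 36. By Spearman's rho, 2 of the 5 genes most like CXCL9, 3 for CXCL11 and 3 for CXCR3 were shared with those by Pearson's r. Signals near background limit IFNG and the second CXCL11 probe, and 2 animals per dose limit day 12.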
